A study of Mus musculus with 9 samples.

Results

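Open chromatin inside genes was followed in mouse embryonic stem cells by ATAC-seq, in which a transposase inserts sequencing adapters wherever DNA is accessible. The regions described are counted regions on chromosomes 1 to 19 and X that overlap, by 1 bp or more, an interval of all 3 deposited peak lists. Each also overlaps the span of a protein-coding gene (RefSeq, GRCm38) and lies more than 1 kb from every start and end of such a span. This rule left 35262 of the 157497 counted regions, or 22.4%, and they are called members below. They made up 40.5% of the 87109 regions found in all 3 lists, and 498 of them were on chromosome X. Because the lists were called on reads of the same libraries, membership itself rests on measured accessibility, and no test sets members against other regions.

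There were 3 groups of 3 libraries, NanogKO:Esrrb:Nanog, NanogKO:Esrrb and NanogKO, and all 9 libraries came from cells without their own Nanog by these names. The NanogKO:Esrrb:Nanog cells carried added Esrrb and Nanog, the NanogKO:Esrrb cells added Esrrb, and the NanogKO cells neither. The labels give both groups with Esrrb 1 shared cell line name and the NanogKO cells another, and each group its own code (44JN, 44J and 44C6), so each comparison with NanogKO is also one between differently named lines. Every group grew in medium with 10% serum and 1000 U/ml of the cytokine LIF, without further treatment, and was flow-sorted to keep cells bearing PECAM and lacking PDGFRA. How Esrrb and Nanog were added, and whether replicates were separate cultures, is not given in the labels, so p-values reflect only the variation among these libraries and this may be technical.

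Accessible sites inside genes and away from their ends are often enhancers, short stretches bound by transcription factors that raise transcription from a promoter at a distance. They may also be internal promoters, binding sites of CTCF or simply DNA left free of nucleosomes. ESRRB is an orphan nuclear receptor and NANOG a homeodomain factor, and both bind enhancers in embryonic stem cells to keep genes of self-renewal active. An accessible site inside a gene need not act on that gene. In such bulk libraries, a larger share of cells with a region open and a region more open in each cell cannot be told apart.

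A total of 1408 members held 1585 internal transcription starts of 1305 genes, starts that RefSeq annotates inside the gene's span. The windows shown run from 250 bases before such a start to 50 bases from it on, are written 5′ to 3′ on the gene's strand (RefSeq, GRCm38.p6), and have the 50 bases from the start on in capitals. They are shown for the 3 members with an internal start that differed most upward and the 3 that differed most downward in NanogKO:Esrrb:Nanog against NanogKO, and for the one member of Esrrb with such a start.
Tbc1d24 start, chr17:24199908-24200207, minus strand: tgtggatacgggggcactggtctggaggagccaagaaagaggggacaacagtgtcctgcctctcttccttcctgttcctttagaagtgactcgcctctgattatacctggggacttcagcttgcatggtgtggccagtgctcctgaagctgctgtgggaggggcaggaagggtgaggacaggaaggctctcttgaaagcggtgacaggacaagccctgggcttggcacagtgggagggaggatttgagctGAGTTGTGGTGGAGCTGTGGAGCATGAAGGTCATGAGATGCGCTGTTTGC
Map4 start, chr9:110051771-110052070, plus strand: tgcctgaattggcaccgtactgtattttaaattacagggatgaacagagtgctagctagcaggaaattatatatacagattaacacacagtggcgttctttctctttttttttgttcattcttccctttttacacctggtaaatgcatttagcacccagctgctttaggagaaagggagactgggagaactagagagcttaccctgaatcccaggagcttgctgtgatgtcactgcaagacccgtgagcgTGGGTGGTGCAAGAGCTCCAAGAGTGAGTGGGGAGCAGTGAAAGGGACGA
Gramd2 start, chr9:59707387-59707686, plus strand: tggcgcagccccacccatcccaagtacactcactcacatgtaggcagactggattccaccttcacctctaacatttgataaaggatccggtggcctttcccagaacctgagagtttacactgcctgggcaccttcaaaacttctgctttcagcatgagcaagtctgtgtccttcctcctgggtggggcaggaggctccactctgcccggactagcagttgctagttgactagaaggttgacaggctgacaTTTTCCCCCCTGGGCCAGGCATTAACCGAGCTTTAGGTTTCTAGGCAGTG
Fam178b start, chr1:36593283-36593582, minus strand: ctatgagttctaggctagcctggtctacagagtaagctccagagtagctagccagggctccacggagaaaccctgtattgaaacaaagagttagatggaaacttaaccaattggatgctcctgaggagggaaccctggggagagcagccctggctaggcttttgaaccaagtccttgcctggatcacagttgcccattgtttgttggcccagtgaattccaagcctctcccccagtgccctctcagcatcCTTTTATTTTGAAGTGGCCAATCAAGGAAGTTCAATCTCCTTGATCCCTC
Zfand4 start, chr6:116266282-116266581, plus strand: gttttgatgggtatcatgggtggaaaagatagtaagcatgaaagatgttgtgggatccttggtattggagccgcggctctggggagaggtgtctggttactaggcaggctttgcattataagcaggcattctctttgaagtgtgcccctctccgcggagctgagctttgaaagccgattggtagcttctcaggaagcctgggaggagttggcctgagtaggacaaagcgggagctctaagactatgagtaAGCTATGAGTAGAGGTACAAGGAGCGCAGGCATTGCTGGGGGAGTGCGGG
Foxp1 start, chr6:99266466-99266765, minus strand: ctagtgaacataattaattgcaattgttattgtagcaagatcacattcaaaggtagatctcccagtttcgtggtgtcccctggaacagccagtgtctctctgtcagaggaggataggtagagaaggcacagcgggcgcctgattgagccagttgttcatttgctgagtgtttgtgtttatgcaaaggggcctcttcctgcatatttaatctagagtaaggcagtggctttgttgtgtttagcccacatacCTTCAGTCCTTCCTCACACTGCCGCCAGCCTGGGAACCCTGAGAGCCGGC
Esrrb start, chr12:86421394-86421693, plus strand: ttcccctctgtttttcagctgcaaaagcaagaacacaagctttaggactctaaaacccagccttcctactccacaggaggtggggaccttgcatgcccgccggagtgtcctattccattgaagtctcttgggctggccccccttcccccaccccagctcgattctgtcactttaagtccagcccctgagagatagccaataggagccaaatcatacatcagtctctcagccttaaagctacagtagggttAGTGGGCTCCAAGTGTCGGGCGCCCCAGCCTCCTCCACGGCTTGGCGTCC

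These windows were searched on both strands for 4 short motifs of factors of this network: TCAAGGTCA for ESRRB, ATGCAAAT for POU factors such as OCT4, GGGTGTGG for KLF factors and TTCCNGGAA for STAT factors. None of the 7 windows held any of them. Of the 1585 windows inside members, 3 held the ESRRB motif, 22 the POU motif, 48 the KLF motif and 20 the STAT motif, or 0.189%, 1.39%, 3.03% and 1.26%. Among all 32851 promoter windows of the annotation table these shares were 0.423%, 1.74%, 3.56% and 1.15%. The motifs are single spellings, so a window without them may still bind the factor. Windows inside members had a median GC content of 60% with 17 CpG dinucleotides, against 52.3% and 7 in the other 31266 windows of the table.

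A further 48 members held the hairpins of 53 annotated microRNAs, the folded precursors of small RNAs that silence messenger RNAs pairing with their seed. The 3 mature sequences below (RefSeq, GRCm38.p6) belong to the hairpins whose members had the smallest p among called ones, with the seed, bases 2 to 8, in capitals. No 2 of these seeds are identical, but those of mmu-miR-6352 and mmu-miR-6405 share the letters UGGGAA, shifted by 1 base.
mmu-miR-6352, chr1:77496731-77496752, minus strand, in Epha4: uUUGGGAAaaggaccccagcuc
mmu-miR-6387, chr12:15801064-15801085, minus strand, in Trib2: uGGAAUGGcuucccuuguguau
mmu-miR-6405, chr19:44808501-44808523, plus strand, in Pax2: gUGGGAAGcagugggaagcagug

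The member around mmu-miR-6352 in Epha4 (chr1:77496691-77497316) had 27.2, 28.7 and 34 CPM in NanogKO:Esrrb:Nanog libraries, 25.4, 22.6 and 24.1 CPM in NanogKO:Esrrb libraries and 8.32, 9.61 and 8.92 CPM in NanogKO libraries, so the 3 groups did not overlap, and both groups with Esrrb lay far above NanogKO. The difference between NanogKO:Esrrb:Nanog and NanogKO:Esrrb there passed the threshold (edgeR, adjusted p = 0.045) and missed it in 10 of 15 alternative fits. The member around mmu-miR-6387 in Trib2, a pseudokinase gene (chr12:15800812-15801584), had 20.8, 16.7 and 23 CPM in NanogKO:Esrrb:Nanog libraries, 12.9, 14.5 and 12.9 CPM in NanogKO:Esrrb libraries and 6.07, 4.83 and 5.6 CPM in NanogKO libraries, and the 3 groups did not overlap. Around mmu-miR-6405 in Pax2, a kidney and midbrain transcription factor gene (chr19:44808477-44809429), the values were 10.1, 11.3 and 11.9 CPM in NanogKO:Esrrb:Nanog libraries, 4.71, 4.76 and 4.85 CPM in NanogKO:Esrrb libraries and 4.56, 5.77 and 6.26 CPM in NanogKO libraries. There the NanogKO:Esrrb:Nanog libraries stood alone at the top and the other groups overlapped. Accessibility of a hairpin's region says nothing of the level of the microRNA, which was not measured. CPM is edgeR's count per unit of library size, scaled with TMM factors, which adjust for differences in composition between libraries.

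Members had a median width of 474 bp (5th to 95th percentile 202 to 1116 bp) and a median level of 5.16 CPM. Shared peaks within 1 kb of a gene's start or end were wider and stronger, with medians of 806 bp and 16.3 CPM in 18591 regions, while the 33256 shared peaks between genes were much like members, at 461 bp and 4.93 CPM. The median member lay 15.5 kb from the nearest end of a gene. Members took 27.4%, 27.8% and 28.1% of the counted reads in NanogKO:Esrrb:Nanog libraries, 26.9%, 27.9% and 27.2% in NanogKO:Esrrb libraries and 27.1%, 27.3% and 27.4% in NanogKO libraries. The NanogKO:Esrrb libraries overlapped both other groups in this share, while the lowest NanogKO:Esrrb:Nanog library, at 27.45%, was just above the highest NanogKO library, at 27.37%. The lists covered a median of 55.9% of a member by the intervals named for the NanogKO:Esrrb:Nanog libraries, 98.0% by those of NanogKO:Esrrb and 91.8% by those of NanogKO. All 138118 intervals of the first of these lists carry peak names of NanogKO:Esrrb replicate 3, so a member is not shown to have a peak called in NanogKO:Esrrb:Nanog cells.

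They were spread over 10418 of the 21631 protein-coding genes, with a median of 2 members per gene. Only 1 member was found in 3875 genes, while the 712 genes with 10 or more held 10471 members, and 355 members lay in more than 1 gene's span. The most were in Gse1, a subunit of histone deacetylase complexes, with 59, Etl4 with 56, Camta1, a calmodulin-binding transcription activator gene, with 53, Dst, which encodes the cytoskeletal linker dystonin, with 48, and Gm37013 with 47. Esrrb held 14 members and Nanog none.

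The 5 members of highest level lay in Cnnm2, Sfi1 (which held 2 of them), the overlapping genes Schip1 and Iqschfp, and Tpm3. In Cnnm2, a magnesium transport gene (chr19:46760840-46763002), the values were 137, 115 and 100.1 CPM in NanogKO:Esrrb:Nanog libraries, 119, 102 and 107 CPM in NanogKO:Esrrb libraries and 118, 99.7 and 100.0 CPM in NanogKO libraries, and the groups overlapped. In Tpm3, a tropomyosin gene (chr3:90079183-90080664), they were 127, 101 and 95.8 CPM in NanogKO:Esrrb:Nanog libraries, 96, 82 and 85.4 CPM in NanogKO:Esrrb libraries and 84.8, 73.2 and 75 CPM in NanogKO libraries. Each NanogKO:Esrrb:Nanog library was there above each NanogKO library, and the log2 fold change between these groups was 0.47 ± 0.12 (SE; edgeR, adjusted p = 0.0017). In Schip1 and Iqschfp (chr3:68492161-68495539) it was 0.4 ± 0.11 (adjusted p = 0.0044), with 130.1, 117 and 109 CPM in NanogKO:Esrrb:Nanog libraries, against 101, 87.6 and 81.6 CPM in NanogKO libraries. The stronger Sfi1 member (chr11:3145870-3146530) had 36.5, 38.3 and 53.5 CPM in NanogKO:Esrrb:Nanog libraries, 76.5, 89.4 and 89.2 CPM in NanogKO:Esrrb libraries and 211, 190.5 and 172 CPM in NanogKO libraries, separate levels in the 3 groups that were lowest with both factors added. The other Sfi1 member (chr11:3134030-3136004) had 66.5, 64.5 and 96.8 CPM in NanogKO:Esrrb:Nanog libraries, 109.8, 96.9 and 128 CPM in NanogKO:Esrrb libraries and 132, 111 and 129 CPM in NanogKO libraries. Sfi1, a centrosomal gene, lies in a part of the mouse genome known for repeated sequence, so reads of near-identical copies may be counted there and its values are uncertain.

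Other members were nearly level in all 9 libraries. Chosen for the smallest range among members at or above the median level, a member in Efcab8 (chr2:153778688-153779642) had 18.5, 18.5 and 18.1 CPM in NanogKO:Esrrb:Nanog libraries, 17.4, 17.5 and 18 CPM in NanogKO:Esrrb libraries and 18.2, 17.8 and 17.1 CPM in NanogKO libraries, and its groups overlapped in part. Another in Gfra1, a receptor for the neurotrophic factor GDNF (chr19:58453022-58454013), had 15.7, 15.6 and 15.7 CPM in NanogKO:Esrrb:Nanog libraries, 15, 15.2 and 15.3 CPM in NanogKO:Esrrb libraries and 16.4, 16 and 15.9 CPM in NanogKO libraries. In Gfra1 no 2 groups overlapped, though the adjusted p was 0.57 or more in each comparison. Adamts9, an extracellular protease gene (chr6:92940441-92941904), and Gne, of sialic acid synthesis (chr4:44062821-44063310), held members with group means of 24.4, 24.5 and 23.5 CPM and of 10.1, 9.81 and 9.68 CPM, in the order NanogKO:Esrrb:Nanog, NanogKO:Esrrb and NanogKO. Glra1, which encodes a glycine receptor subunit, held both a level member and one of the largest falls. The level one (chr11:55518847-55519490) had 12.4, 11.4 and 12.3 CPM in NanogKO:Esrrb:Nanog libraries, 11.8, 11.1 and 11.6 CPM in NanogKO:Esrrb libraries and 12.3, 11.7 and 11.7 CPM in NanogKO libraries. The other (chr11:55601562-55602044) had 1.91, 1.09 and 1.59 CPM in NanogKO:Esrrb:Nanog libraries, 4.19, 3.18 and 5.01 CPM in NanogKO:Esrrb libraries and 16, 17.1 and 13.4 CPM in NanogKO libraries, without overlap between any 2 groups.

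Marker genes of embryonic stem cells had counted regions in these libraries, and so had markers of other cell types. The sums below do not identify the cells, and lists of unequal size cannot be set against each other. All 10 marker genes of these cells had counted regions, at 10 CPM or more when summed over the gene, and the list summed to 706 to 789 CPM in NanogKO:Esrrb:Nanog libraries, 614 to 664 in NanogKO:Esrrb and 513 to 545 in NanogKO. The 6 primitive endoderm markers summed to 251 to 271, 228 to 263 and 278 to 298 CPM in the same order, the 5 neural ones to 327 to 373, 265 to 303 and 301 to 337, the 6 fibroblast ones (5 with a region) to 121 to 131, 117 to 121 and 122 to 133, and the 5 endothelial and blood ones to 121 to 124, 117 to 122 and 128 to 136. At least 10 CPM were found at all primitive endoderm and neural markers, at 4 fibroblast markers and at 3 of endothelium and blood. The first list was highest with both factors added, without overlap between groups, and the part of these lists in the results below was not tested. Total counts ran from 35545030 to 58520948 per library, and the median count of a member from 178 to 307. No member had fewer than 14 counts in any library.

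The comparison of NanogKO:Esrrb with NanogKO asks how accessibility differed with the added Esrrb. Members in genes that mark naive pluripotency, the state of cells of the early epiblast, were more often higher than lower, as were those in genes of general pluripotency, LIF signalling and FGF and ERK signalling. Members in neural, trophoblast and formative genes were more often lower. In all, 6136 members were higher and 5596 lower, or 33.3% of the 35262, where 37% of all 157439 regions tested passed (edgeR's quasi-likelihood test, Benjamini-Hochberg adjusted p under 0.05). Of all regions 20% were higher and 17% lower. Past 2-fold there were 1352 members up and 753 down, together 5.97% of members. Of all regions 8.37% were up and 6.01% down past 2-fold, together 14.4%. The median log2 fold change was -0.04 over members and -0.01 over all regions. The libraries of both groups did not overlap at 48.7% of members and 51.9% of all regions. Among called members, which the test picks for such separation, this share was 96.2%.

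The largest rise was in Ddah1, which encodes an enzyme that clears inhibitors of nitric oxide synthase (chr3:145773424-145773955), with 9.72, 13.5 and 8.94 CPM in NanogKO:Esrrb libraries, against 1.49, 1.3 and 1.56 CPM in NanogKO libraries. That is a 7.41-fold difference, or a log2 fold change of 2.89 ± 0.18. The largest rises and falls of each comparison were chosen among members whose libraries do not overlap, so that separation is no finding. A member in Kmt2c, a histone methyltransferase acting at enhancers (chr5:25275531-25276255), had 10.9, 13.5 and 10.3 CPM in NanogKO:Esrrb libraries, against 1.76, 1.87 and 2.11 CPM in NanogKO libraries (log2 fold change 2.6 ± 0.15). In Sap30bp, a gene for a partner of the SIN3 corepressor complex (chr11:115944911-115945629), the values were 15.6, 21.1 and 13.1 CPM in NanogKO:Esrrb libraries, against 2.27, 2.76 and 2.64 CPM in NanogKO libraries (2.7 ± 0.16). NanogKO:Esrrb replicate 3 was the lowest of its group in all these members. Members in Crtac1, of a secreted cartilage protein (chr19:42322095-42322920), and Fhit, of a nucleotide hydrolase (chr14:9669729-9670326), rose by 2.65 ± 0.16 and 2.55 ± 0.18.

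Downward, the largest difference was in Map4k5, a kinase gene upstream of JNK (chr12:69879185-69879598), with 4.63, 2.65 and 5.48 CPM in NanogKO:Esrrb libraries, against 28.2, 26.6 and 24.8 CPM in NanogKO libraries (-2.64 ± 0.19). In Nav2, a neuron navigator gene (chr7:49527440-49527840), the values were 3, 2.34 and 3.31 CPM in NanogKO:Esrrb libraries, against 17, 16.6 and 15.2 CPM in NanogKO libraries (-2.5 ± 0.15). The member in Tap1, a transporter of peptides for antigen presentation (chr17:34192729-34193179), had 3.34, 2.16 and 3.86 CPM in NanogKO:Esrrb libraries, against 17.8, 15.4 and 18.7 CPM in NanogKO libraries (-2.47 ± 0.19). Each of the 3 was lower in every NanogKO:Esrrb library than in any NanogKO library, as the choice of these members requires. Members in the phosphatase gene Ppm1h (chr10:122869847-122870637) and in Tgfa, which encodes a ligand of the EGF receptor (chr6:86222048-86222781), fell by 2.42 and 2.29 on the log2 scale. The adjusted p of these 10 members was at most 1.9e-10.

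In the naive pluripotency list, where Esrrb held 14 of 49 members, 21 of the 49 were higher and 3 lower, with a median log2 fold change of 0.22. Its member of smallest p lay in Jam2, a junctional adhesion molecule gene (chr16:84778713-84780239), with 47.2, 48.4 and 39.2 CPM in NanogKO:Esrrb libraries, against 8.95, 9.59 and 11.3 CPM in NanogKO libraries (2.17 ± 0.13). For general pluripotency, 15 of 51 were higher and 5 lower (median 0.23), led by Sall4, a zinc finger factor (chr2:168761095-168761603, 1.53 ± 0.14). Genes of LIF and STAT3 signalling had 13 of 46 higher and 4 lower (0.17). Among them Il6st encodes the signal-transducing receptor chain through which LIF acts, and its member (chr13:112486283-112487130) had 11.3, 10.9 and 10.2 CPM in NanogKO:Esrrb libraries, against 2.49, 2.96 and 3.35 CPM in NanogKO libraries (1.88 ± 0.14). Genes of FGF and ERK signalling had 30 of 92 higher and 8 lower (0.15), led by Rps6ka1, a kinase downstream of ERK (chr4:133864212-133865949, 2.18 ± 0.14).

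Neural genes had 13 of 107 members higher and 31 lower (median -0.16), though their member of smallest p, in the zinc finger gene Zfp521, was higher by 1.89 ± 0.18. Formative and primed pluripotency had 13 of 89 higher and 20 lower (-0.11), and trophoblast 5 of 41 higher and 10 lower (-0.20). The formative member of smallest p, in Foxp1 (chr6:99378746-99379548), was higher, by 1.68 ± 0.14. Tead4, of the trophoblast list, held a member that rose by 1.21 ± 0.16, and Dab2, an endocytic adaptor of the primitive endoderm list, one that fell by 1.5 on the log2 scale. The primitive endoderm list had 10 of 57 higher and 4 lower (-0.05). Chromatin regulators had 75 of 350 higher and 43 lower (0.03), and genes of adhesion and matrix 79 of 334 higher and 51 lower (0.04), with Ctnnd2, a delta catenin gene, at 2.5 ± 0.15. Genes of axon guidance and ephrin signalling had 73 of 274 higher and 44 lower with a median of -0.004, which turns to 0.002 when only library totals are used for scaling. Members in Ror2, a WNT receptor, in Pcsk6, a convertase that activates Nodal, and in Ccnd2, a cyclin, rose by 1.58 ± 0.14, 1.86 ± 0.13 and 1.33 ± 0.12. WNT signalling had 30 of 157 higher and 20 lower (0.03), and cell cycle 17 of 92 and 13 (0.11). Genes of TGF-beta, Nodal and BMP signalling had 18 of 83 higher and 15 lower (-0.04). Members in Kdr, Col5a1 and Erg, of the mesendoderm, fibroblast and endothelium lists, also rose (1.19 ± 0.15, 1.8 ± 0.18 and 1.51 ± 0.17). These lists had negative medians, with 1 of 10 higher and 0 lower (-0.06), 1 of 17 and 0 (-0.14), and 8 of 52 and 10 (-0.09). One in the housekeeping gene Ywhaz fell by 0.82, in a list with 3 of 19 higher and 2 lower (0.02). The adjusted p of all 28 members named for this comparison was at most 5.1e-05.

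**Figure D1:**
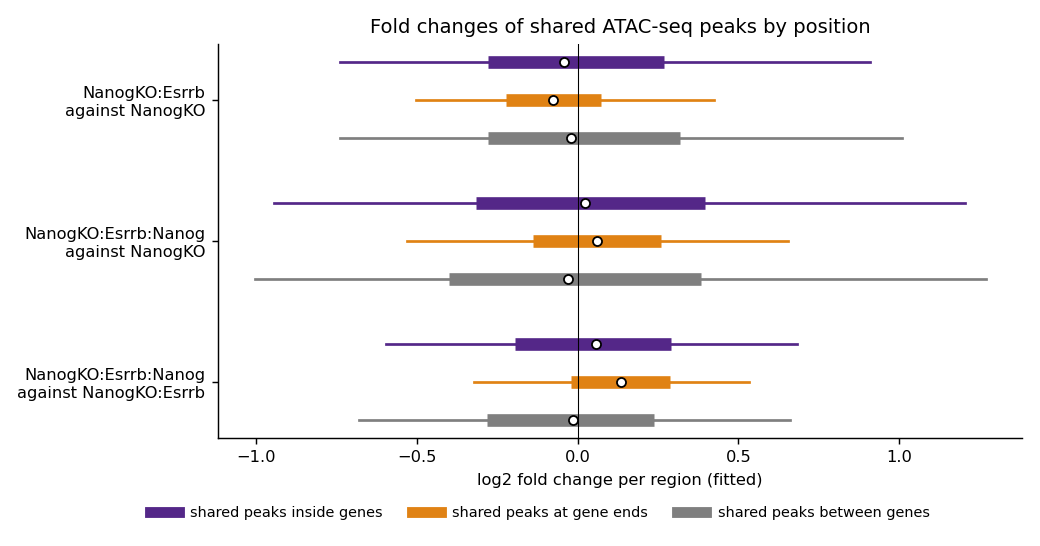
Log2 fold change per region (x axis) in the 3 comparisons, for shared peaks inside genes (35262), at gene ends (18591) and between genes (33256). White points are medians, thick bars the middle 50% and thin lines the 5th to 95th percentile over regions; for peaks inside genes the medians are -0.04, 0.02 and 0.06 from the top comparison down.

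The plot of fold changes by position sets members beside the other shared peaks. In NanogKO:Esrrb against NanogKO, peaks at gene ends had 1191 higher and 2421 lower, with a median of -0.08, and peaks between genes 6704 higher and 5086 lower, with a median of -0.02. The spread over members resembled that of peaks between genes, with 5th and 95th percentiles of -0.74 and 0.91 for members and -0.74 and 1.01 for those between genes. Peaks at gene ends had a narrower range, from -0.50 to 0.43. These are descriptions, since the peaks of each class were chosen on the same reads.

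With both factors added, in NanogKO:Esrrb:Nanog against NanogKO, more members passed the test. Members in naive pluripotency genes had 35 of 49 higher, and those in genes of general pluripotency, LIF signalling and FGF and ERK signalling were higher in 47.8% to 50% of cases, while neural genes had 23 of 107 higher and 35 lower, or 22 and 23 without NanogKO replicate 2. In all, 9095 members were higher and 7109 lower, or 46.0%, where 49.3% of all regions passed (24.9% higher, 24.4% lower). Past 2-fold there were 2766 members up and 1531 down, together 12.2% of members. Of all regions 11.3% were up and 11% down past 2-fold, together 22.4%. The median log2 fold change was 0.02 over members and -0.008 over all regions, and libraries did not overlap at 52.7% of members and 54.5% of all regions. Scaled by library totals alone, which shifts the median of all regions to -0.104, 7474 members were higher and 8968 lower, so 45.5% of the calls were higher in place of 56.1%. This comparison shares its NanogKO libraries with the one before, so values are set side by side and no overlap is drawn.

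The Kmt2c member had the largest rise, 14.8-fold, with 25.6, 28.5 and 31.1 CPM in NanogKO:Esrrb:Nanog libraries, against 1.76, 1.87 and 2.11 CPM in NanogKO libraries (log2 fold change 3.89 ± 0.15). The Sap30bp member described above had 33.6, 33.6 and 30.6 CPM in NanogKO:Esrrb:Nanog libraries, against 2.27, 2.76 and 2.64 CPM in NanogKO libraries (3.67 ± 0.16). The Crtac1 member had 34.4, 30.5 and 30.8 CPM in NanogKO:Esrrb:Nanog libraries, against 3.27, 2.68 and 2.74 CPM in NanogKO libraries (3.47 ± 0.16). All NanogKO:Esrrb:Nanog libraries were above all NanogKO libraries in both, as the choice of these members requires. In Myo1f, an unconventional myosin gene (chr17:33599761-33600251), the member had 27.5, 25.4 and 33.2 CPM in NanogKO:Esrrb:Nanog libraries, against 2.15, 2.26 and 1.78 CPM in NanogKO libraries (3.8 ± 0.2). A member in Cacna1c, which encodes the pore of an L-type calcium channel (chr6:118770384-118770751), had 13.6, 11.9 and 14.1 CPM in NanogKO:Esrrb:Nanog libraries, 2.19, 2.9 and 2.75 CPM in NanogKO:Esrrb libraries and 1.49, 1.36 and 1.4 CPM in NanogKO libraries (3.22 ± 0.17). Here NanogKO:Esrrb libraries lay close to NanogKO libraries, without overlap, and NanogKO:Esrrb:Nanog libraries far above both.

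The largest fall was in Tcf4, a basic helix-loop-helix factor of neural development (chr18:69430335-69430731), with 1.49, 1.35 and 0.64 CPM in NanogKO:Esrrb:Nanog libraries, against 12.3, 16.6 and 11.7 CPM in NanogKO libraries (-3.58 ± 0.25). The Glra1 member described above fell by 3.32 on the log2 scale, and the Map4k5 member, with 2.65, 2.35 and 3.74 CPM in NanogKO:Esrrb:Nanog libraries, by 3.17. In Fggy, a carbohydrate kinase gene (chr4:95845693-95846530), the values were 1.82, 1.29 and 2.44 CPM in NanogKO:Esrrb:Nanog libraries, against 15.6, 18.4 and 14.5 CPM in NanogKO libraries (-3.09 ± 0.2). The Ppm1h member had 2.09, 1.76 and 1.97 CPM in NanogKO:Esrrb:Nanog libraries, against 16.1, 16.3 and 14.6 CPM in NanogKO libraries (-3.0 ± 0.16). All 3 NanogKO:Esrrb:Nanog libraries were below all 3 NanogKO libraries at each of these members, again as their choice requires. The adjusted p of the 10 largest changes was at most 1e-11.

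**Figure D2:**
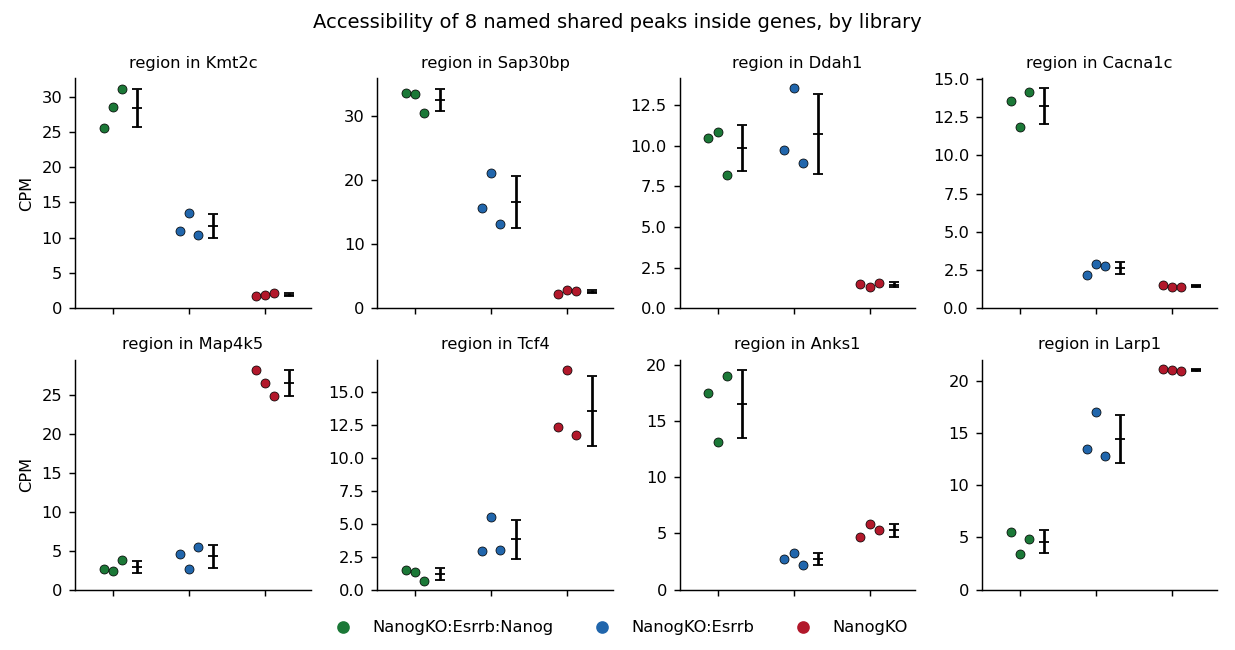
Accessibility in CPM (y axis, from 0) of 8 members by library, with points for single libraries of NanogKO:Esrrb:Nanog (left), NanogKO:Esrrb (middle) and NanogKO (right) and, beside each group, its mean with SD (n = 3). The regions in Kmt2c, Sap30bp, Ddah1 and Cacna1c were lowest in NanogKO, those in Map4k5, Tcf4 and Larp1 were highest in NanogKO, and the one in Anks1 was highest in NanogKO:Esrrb:Nanog.

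In the plot by library, the region in Ddah1 had overlapping libraries in NanogKO:Esrrb:Nanog and NanogKO:Esrrb, while those in Kmt2c, Sap30bp and Cacna1c were higher in every NanogKO:Esrrb:Nanog library than in any NanogKO:Esrrb library. Between NanogKO replicates the spread was small in these rises, with a mean and SD of 1.91 ± 0.179 CPM in Kmt2c and 1.42 ± 0.0657 CPM in Cacna1c (n = 3). The spread was wider among NanogKO:Esrrb libraries, at 16.6 ± 4.1 CPM in Sap30bp.

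Of the naive pluripotency members 35 of 49 were higher and 5 lower, with a median log2 fold change of 0.65. The Jam2 member had 44.7, 49.4 and 61.2 CPM in NanogKO:Esrrb:Nanog libraries (2.38 ± 0.14 against NanogKO). General pluripotency had 25 of 51 higher and 3 lower (median 0.31), LIF and STAT3 signalling 23 of 46 higher and 4 lower (0.33), and FGF and ERK signalling 44 of 92 higher and 9 lower (0.36). Leading members lay in Sall4 (1.91 ± 0.14), Il6st (1.9 ± 0.14) and Rps6ka1, where the values were 33.3, 29.7 and 25.2 CPM in NanogKO:Esrrb:Nanog libraries, against 4.19, 4.12 and 4.76 CPM in NanogKO libraries (2.75 ± 0.14). Chromatin regulators had 115 of 350 higher and 41 lower (0.16), adhesion and matrix genes 110 of 334 and 54 (0.13), WNT signalling 49 of 157 and 23 (0.13), and TGF-beta, Nodal and BMP signalling 29 of 83 and 21 (0.13). Their leading members lay in Kmt2c, in Ctnnd2 (3.01 ± 0.15), in Tle3, a corepressor of WNT targets (chr9:61377553-61378034, 2.02 ± 0.14), and in Pcsk6 (2.22 ± 0.13).

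Neural genes had 23 of 107 higher and 35 lower (median -0.07), and yet the member of smallest p, in the adhesion molecule gene Ncam1 (chr9:49751332-49751914), rose, with 16.9, 16.5 and 21.4 CPM in NanogKO:Esrrb:Nanog libraries, against 3.66, 3.1 and 3.61 CPM in NanogKO libraries (2.41 ± 0.15). The largest fall among the leading members of the lists was in Foxp1, a forkhead factor of the formative list, at the internal start shown above (chr6:99265720-99266688), with 4.98, 5.57 and 5.76 CPM in NanogKO:Esrrb:Nanog libraries, 10.0, 9.29 and 9.53 CPM in NanogKO:Esrrb libraries and 23.4, 23.2 and 20.4 CPM in NanogKO libraries (-2.04 ± 0.13 against NanogKO). In that list 17 of 89 were higher and 21 lower, with a median of 0.06 that turns to -0.04 with library totals alone. The median also turned from positive to negative with that scaling for trophoblast (9 higher and 8 lower of 41), axon guidance (87 and 58 of 274), nuclear receptors (54 and 29 of 178), endothelium and blood (13 and 15 of 52), fibroblast (4 and 1 of 17) and mesendoderm (2 and 2 of 10). It stayed positive for primitive endoderm (20 and 5 of 57), cell cycle (26 and 13 of 92) and housekeeping genes (8 and 1 of 19). With that scaling FGF and ERK signalling had 37 higher and 14 lower, chromatin regulators 87 and 57, nuclear receptors 45 and 45, trophoblast 7 and 11, and primitive endoderm 15 and 7.

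Single members in these lists differed widely. Dab2 held one that fell by 2.02 on the log2 scale, while members in Mad1l1, a spindle checkpoint gene (chr5:140068291-140068841), and Ntn1, which encodes the guidance cue netrin (chr11:68262851-68263627), rose by 3.0 ± 0.16 and 1.95 ± 0.13. In Mad1l1 the values were 16.7, 19.1 and 14.9 CPM in NanogKO:Esrrb:Nanog libraries, against 2.1, 1.95 and 2.29 CPM in NanogKO libraries. Tfap2a, a trophoblast and neural crest factor (chr13:40717157-40717754), Kdr, a VEGF receptor (chr5:75941072-75942589), and Erg, an endothelial ETS factor (chr16:95544904-95545833), held members that rose by 1.43 ± 0.15, 1.32 ± 0.15 and 2.09 ± 0.17. Col5a1, a fibrillar collagen (chr2:28031712-28032721), had one at 2.78 ± 0.18, and Ywhaz, a signalling adaptor (chr15:36792312-36792962), one at 0.7 ± 0.14. All 28 members named for this comparison had an adjusted p of at most 0.00022.

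**Figure D3:**
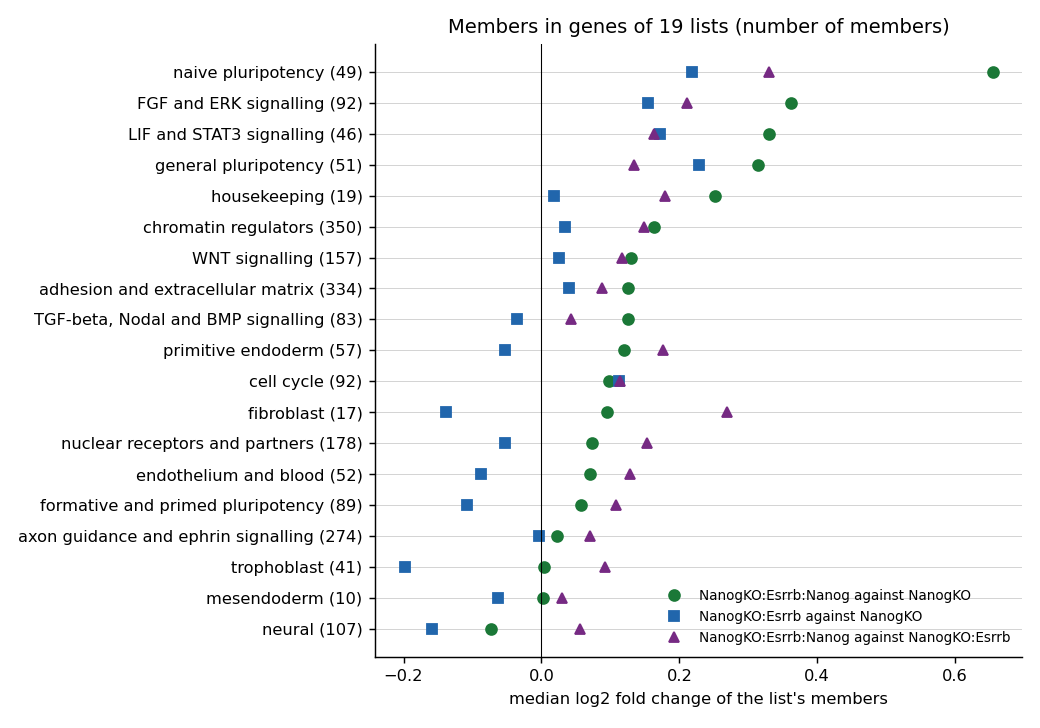
Median log2 fold change (x axis) of the members in genes of each of 19 lists (y axis, number of members in brackets), with circles for NanogKO:Esrrb:Nanog against NanogKO, squares for NanogKO:Esrrb against NanogKO and triangles for NanogKO:Esrrb:Nanog against NanogKO:Esrrb. Naive pluripotency has the highest median of the 19 lists in both comparisons of NanogKO:Esrrb:Nanog, at 0.65 against NanogKO and 0.33 against NanogKO:Esrrb. Esrrb alone holds 14 of the 49 members of that list.

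The plot of lists shows medians over few members in some rows, such as 10 for mesendoderm, 17 for fibroblast and 19 for housekeeping genes. The 19 lists were chosen for this tissue, with 373 of their 521 genes holding a member, and members of 1 gene are not independent of each other. In the naive pluripotency list Esrrb, whose product was added, held 14 of the 49 members. It gave 13 of the 35 higher calls of NanogKO:Esrrb:Nanog against NanogKO and 12 of the 24 against NanogKO:Esrrb.

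The groups that both carry added Esrrb, NanogKO:Esrrb:Nanog and NanogKO:Esrrb, differ in the added Nanog and share their labelled cell line. Fewer members differed between them. In naive pluripotency genes 24 of 49 were higher and 1 lower with Nanog, and in chromatin regulators 67 of 350 and 12. In all, 5544 members were higher and 2902 lower, or 24.0%, where 24.6% of all regions passed (12.6% higher, 12% lower). Past 2-fold there were 450 members up and 192 down, together 1.82% of members. Of all regions 1.89% were up and 3.63% down past 2-fold, together 5.52%. The median log2 fold change was 0.06 over members and -0.010 over all regions, and libraries did not overlap at 37.5% of members and 37.7% of all regions. Scaled by library totals alone, which shifts the median of all regions to -0.112, 3521 members were higher and 4366 lower, so 44.6% of calls were higher in place of 65.6%, and the direction of the balance turns. Without NanogKO:Esrrb replicate 3, 3527 were higher and 1830 lower, and without NanogKO:Esrrb:Nanog replicate 1 or 2 the lower ones numbered 1849 or 1858.

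A member in Anks1, an adaptor of Eph receptors (chr17:27994141-27994754), rose most, with 17.5, 13.1 and 19 CPM in NanogKO:Esrrb:Nanog libraries, 2.74, 3.23 and 2.21 CPM in NanogKO:Esrrb libraries and 4.68, 5.84 and 5.31 CPM in NanogKO libraries (log2 fold change 2.6 ± 0.17 against NanogKO:Esrrb). Its NanogKO:Esrrb libraries were the lowest of the 3 groups. A member in Pitpnm2, a phosphatidylinositol transfer gene (chr5:124176576-124177274), had the same order, with 21.4, 21.5 and 24.5 CPM in NanogKO:Esrrb:Nanog libraries, 4.67, 5.36 and 4.51 CPM in NanogKO:Esrrb libraries and 10.5, 9.66 and 12.5 CPM in NanogKO libraries (2.21 ± 0.13 against NanogKO:Esrrb). So did one in Fcgr1, an Fc receptor gene (chr3:96289255-96289673), with 9.62, 9.42 and 10.6 CPM in NanogKO:Esrrb:Nanog libraries, 2.11, 2.31 and 2.21 CPM in NanogKO:Esrrb libraries and 5.17, 6.34 and 5.33 CPM in NanogKO libraries (2.16 ± 0.15 against NanogKO:Esrrb). In Ruvbl1, an ATPase of chromatin remodelling complexes (chr6:88482871-88483465), the values were 18.6, 24 and 26.2 CPM in NanogKO:Esrrb:Nanog libraries, 5.07, 5.54 and 4.89 CPM in NanogKO:Esrrb libraries and 2.93, 2.72 and 3.57 CPM in NanogKO libraries (2.15 ± 0.14), lowest in NanogKO. The Cacna1c member rose by 2.34 ± 0.16.

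Downward, a member in Camk1d, a calcium-dependent kinase gene (chr2:5379036-5379383), had 2.3, 0.792 and 4.44 CPM in NanogKO:Esrrb:Nanog libraries, 12.7, 11 and 8.65 CPM in NanogKO:Esrrb libraries and 13.8, 7.68 and 4.18 CPM in NanogKO libraries (-2.04 ± 0.34). Its replicates differed several-fold within NanogKO:Esrrb:Nanog and within NanogKO, and the NanogKO libraries overlapped both other groups. A member in the overlapping genes Cmss1 and Filip1l (chr16:57391128-57391678) varied alike, with 6.61, 2.64 and 10.7 CPM in NanogKO:Esrrb:Nanog libraries, 28.9, 26.5 and 19 CPM in NanogKO:Esrrb libraries and 28.3, 17.5 and 10.8 CPM in NanogKO libraries (-1.87 ± 0.29). In Larp1, a regulator of translation (chr11:57983569-57984708), the values were 5.54, 3.37 and 4.84 CPM in NanogKO:Esrrb:Nanog libraries, 13.5, 17 and 12.8 CPM in NanogKO:Esrrb libraries and 21.1, 21 and 20.9 CPM in NanogKO libraries (-1.64 ± 0.15), and no groups overlapped. The Tcf4 member, with 2.92, 5.53 and 2.99 CPM in NanogKO:Esrrb libraries, fell by 1.76 on the log2 scale, and one in Gm29721 (chr17:6570477-6571625) by 1.68. The adjusted p of these 10 was at most 0.00012.

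By list, naive pluripotency had 24 of 49 higher and 1 lower (median 0.33), FGF and ERK signalling 29 of 92 and 2 (0.21), LIF and STAT3 signalling 11 of 46 and 1 (0.16), general pluripotency 7 of 51 and 1 (0.13), and formative pluripotency 15 of 89 and 3 (0.11). Over all members 15.7% were higher and 8.23% lower, and over all regions 12.6% and 12%. The higher shares of the general and formative lists, 13.7% and 16.9%, thus lay near the background. Their lower shares, 1.96% and 3.37%, lay below it, on few calls. With library totals alone the formative list had 6 higher and 11 lower, FGF and ERK signalling 21 and 12, and chromatin regulators 42 and 20. Without NanogKO:Esrrb:Nanog replicate 1 or 3 general pluripotency had 4 or 12 higher. Without NanogKO:Esrrb replicate 3 there were 19 higher in FGF and ERK signalling and 36 in chromatin regulators, and the formative list had 7 to 9 higher without any 1 of 5 libraries, NanogKO:Esrrb:Nanog replicates 1 and 2 and all NanogKO:Esrrb ones. Leading members lay in Spred2, an inhibitor of ERK signalling (chr11:19926094-19926494), with 20.9, 19.4 and 17.9 CPM in NanogKO:Esrrb:Nanog libraries, against 10.9, 10.2 and 9.69 CPM in NanogKO:Esrrb libraries (0.92 ± 0.13), and in Socs2, a feedback inhibitor of cytokine signalling (chr10:95398536-95398851, 1.4 ± 0.19). Fgf5, a growth factor gene of formative cells (chr5:98255744-98256326), held one with 9.95, 8.68 and 14.3 CPM in NanogKO:Esrrb:Nanog libraries, 3.34, 2.33 and 5.06 CPM in NanogKO:Esrrb libraries and 10.8, 11.9 and 10.6 CPM in NanogKO libraries. Its NanogKO:Esrrb libraries were the lowest and the other groups overlapped. Trim71, an RNA-binding ubiquitin ligase (chr9:114549056-114549503), had one at 0.62 ± 0.13.

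Neural genes had 24 of 107 higher and 10 lower (median 0.06), led by another member in Ncam1 (chr9:49796557-49797450), with 32.4, 35.6 and 30.9 CPM in NanogKO:Esrrb:Nanog libraries, against 14.6, 12.3 and 13 CPM in NanogKO:Esrrb libraries (1.31 ± 0.12). With library totals alone that median turns negative, as do those of trophoblast (9 higher and 1 lower of 41), TGF-beta, Nodal and BMP signalling (19 and 4 of 83), adhesion and matrix (56 and 15 of 334), axon guidance (53 and 22 of 274) and mesendoderm (1 and 0 of 10). Members in Acvr1b, a receptor for Nodal and activin (chr15:101180769-101181654), Ephb4, an ephrin receptor (chr5:137352074-137352456), and Hspg2, which encodes perlecan (chr4:137495472-137495737), rose by 1.34 ± 0.14, 1.25 ± 0.15 and 1.2 ± 0.17. One in Hnf4a, a nuclear receptor of the primitive endoderm list (chr2:163515767-163516263), fell, with 1.26, 1.47 and 1.19 CPM in NanogKO:Esrrb:Nanog libraries, against 3.02, 3.37 and 3.72 CPM in NanogKO:Esrrb libraries (-1.38 ± 0.2). Its list mostly went the other way, with 12 of 57 members higher and 3 lower (median 0.18). Members in Tle3 (chr9:61404280-61404540), Runx1, a blood factor (chr16:92685812-92686350), and Evx1, a homeobox factor (chr6:52314581-52314875), rose by 1.17 ± 0.15, 1.18 ± 0.17 and 0.93 ± 0.16. Those named before in Tfap2a, Kmt2c, Mad1l1, Col5a1 and Ywhaz (chr15:36779578-36779820 for the last) rose by 1.18 ± 0.15, 1.29 ± 0.13, 1.28 ± 0.14, 0.98 ± 0.16 and 0.69 ± 0.14. The adjusted p of the 28 members named for this comparison was at most 0.0018.

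Many genes held members called in both directions. Of the genes with 2 or more called members, 1236 of 2523 had calls both ways in NanogKO:Esrrb against NanogKO, 1812 of 3424 in NanogKO:Esrrb:Nanog against NanogKO, and 806 of 1835 in NanogKO:Esrrb:Nanog against NanogKO:Esrrb. Over all members, 52.3%, 56.1% and 65.6% of calls were higher in these comparisons. Calls unrelated within a gene would thus also often differ in direction, and agreement within genes was not tested. Dst had 10 members higher and 9 lower of 48 in NanogKO:Esrrb against NanogKO, and 14 higher and 9 lower in NanogKO:Esrrb:Nanog against NanogKO. Etl4 (15 higher and 7 lower of 56) and Pde4d, a phosphodiesterase gene (9 and 7 of 43), were also split in NanogKO:Esrrb against NanogKO, as were Arhgap26 (16 and 8 of 42) and Cdh4, a cadherin gene (9 and 8 of 28), in NanogKO:Esrrb:Nanog against NanogKO. Between NanogKO:Esrrb:Nanog and NanogKO:Esrrb the genes with the most members on the rarer side were St6galnac3 (6 and 7 of 35), Ptprg (6 and 5 of 41) and Tenm4 (7 and 5 of 30).

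Other genes moved one way over most of their length. Epha4, a receptor tyrosine kinase of ephrins (chr1:77367182-77515107), had 15 of 16 members higher and none lower in NanogKO:Esrrb against NanogKO (median log2 fold change 1.33), and 15 higher and 1 lower in NanogKO:Esrrb:Nanog against NanogKO (1.63). Its member of smallest p in the first comparison (chr1:77451667-77451958) had 8.65, 8.51 and 13.5 CPM in NanogKO:Esrrb:Nanog libraries, 9.88, 11.1 and 8.98 CPM in NanogKO:Esrrb libraries and 1.39, 2.15 and 1.91 CPM in NanogKO libraries, with NanogKO:Esrrb:Nanog and NanogKO:Esrrb libraries overlapping far above NanogKO. Creb5, a transcription factor gene, had 7 of 10 higher (median 0.84) and Gtf2ird1, another, 9 of 15 higher and 1 lower (0.72) in NanogKO:Esrrb against NanogKO. Rnf220, a ubiquitin ligase gene, had 25 of 30 higher in NanogKO:Esrrb:Nanog against NanogKO (0.98). Dlg2, a synaptic scaffold gene (chr7:90476188-92449246), had 1 of 14 higher and 10 lower in NanogKO:Esrrb against NanogKO (-0.66) and none higher and 11 lower in NanogKO:Esrrb:Nanog against NanogKO (-1.10). Med12l had 7 of 11 lower and Tbxas1, which encodes thromboxane synthase, 6 of 10 lower in NanogKO:Esrrb against NanogKO, and Ltbp1, of latent TGF-beta binding, 9 of 10 lower in NanogKO:Esrrb:Nanog against NanogKO (-1.01). Members in Sfi1 were lower in 18 of 20 cases in NanogKO:Esrrb:Nanog against NanogKO (-0.90) and in 18 of 20 against NanogKO:Esrrb (-0.57).

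Between NanogKO:Esrrb:Nanog and NanogKO:Esrrb, the genes with the highest medians were Esrrb, Nhsl2 (7 of 11 higher, 0.52) and Epb41l4a (10 of 17 higher, 0.48). After Sfi1, the lowest were Gm38469 (1 of 16 higher and 8 lower, -0.48) and Ccdc171 (3 of 10 lower, -0.39). Of the genes with most members, Gse1 had 16 of 59 higher and 1 lower in NanogKO:Esrrb against NanogKO, 31 higher and 2 lower in NanogKO:Esrrb:Nanog against NanogKO, and 12 higher and 0 lower in NanogKO:Esrrb:Nanog against NanogKO:Esrrb. Camta1 had 2 and 5, 13 and 6, and 12 and 1 of 53 in the same comparisons, and Gm37013 had 6 and 7, 9 and 8, and 6 and 2 of 47. Over all regions, 20% were higher and 17% lower, 24.9% and 24.4%, and 12.6% and 12% in these comparisons.

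**Figure D4:**
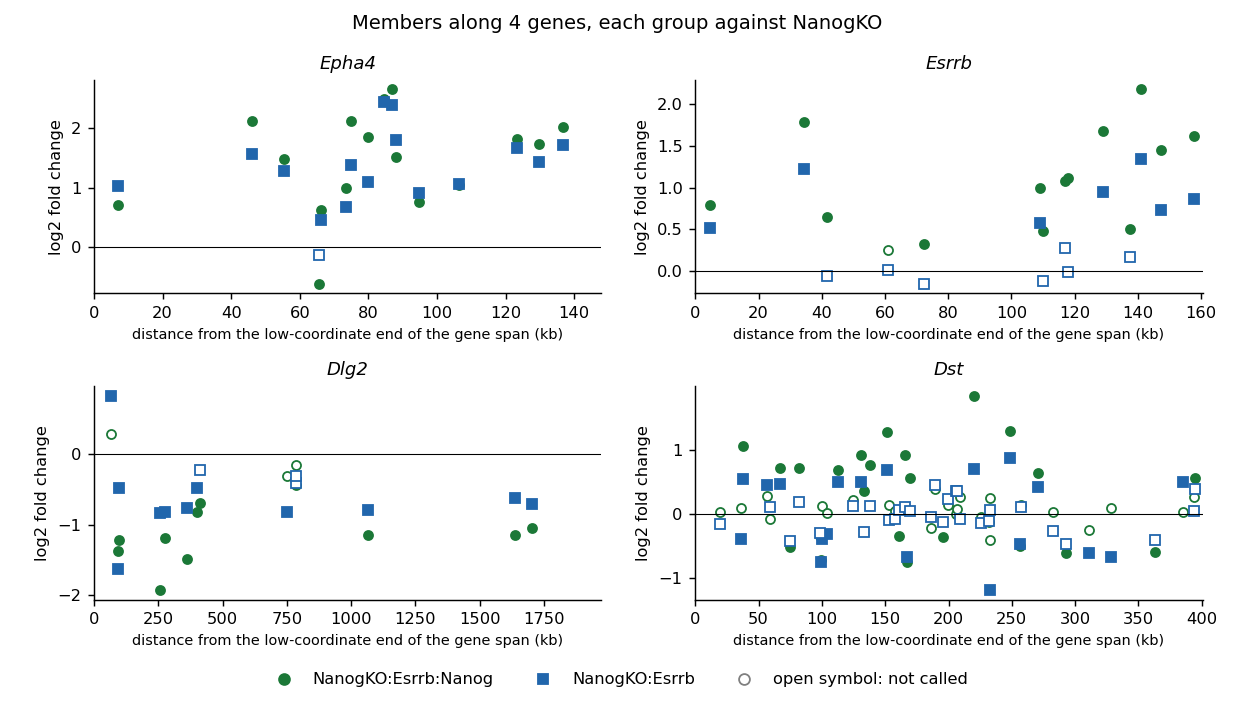
Log2 fold change against NanogKO (y axis) of each member along Epha4, Esrrb, Dlg2 and Dst (x axis, kb from the low-coordinate end of the gene's span), with circles for NanogKO:Esrrb:Nanog and squares for NanogKO:Esrrb, filled where called. Members of Epha4 lie above 0 in 15 of 16 cases in NanogKO:Esrrb, those of Dlg2 mostly below 0, and those of Dst on both sides.

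Esrrb itself (chr12:86361117-86521628) is the gene whose product was added. Of its 14 members, 13 were higher in NanogKO:Esrrb:Nanog against NanogKO (median 1.04), 12 in NanogKO:Esrrb:Nanog against NanogKO:Esrrb (0.65), and none was lower in either comparison. In NanogKO:Esrrb against NanogKO, 7 were called, all higher. The strongest member (chr12:86501640-86502386) had 67.2, 54.6 and 64 CPM in NanogKO:Esrrb:Nanog libraries, 36.1, 39.9 and 28 CPM in NanogKO:Esrrb libraries and 12.3, 12.2 and 16.6 CPM in NanogKO libraries, separate in the 3 groups (2.18 ± 0.14 against NanogKO and 0.84 ± 0.14 against NanogKO:Esrrb). Another (chr12:86394923-86396293) had 15.7, 13.6 and 14.1 CPM in NanogKO:Esrrb:Nanog libraries, 9.6, 10.8 and 8.98 CPM in NanogKO:Esrrb libraries and 4.12, 4.34 and 4.12 CPM in NanogKO libraries, again in 3 separate levels. A member at chr12:86478692-86479450 had 15.3, 18.6 and 17.5 CPM in NanogKO:Esrrb:Nanog libraries, 8.37, 8.26 and 6.91 CPM in NanogKO:Esrrb libraries and 7.8, 7.59 and 8.37 CPM in NanogKO libraries, so that NanogKO:Esrrb:Nanog libraries lay above NanogKO:Esrrb and NanogKO libraries, which overlapped (1.13 ± 0.13 against NanogKO:Esrrb). At chr12:86402517-86403069 the order was alike, with 16.5, 16.5 and 13.5 CPM in NanogKO:Esrrb:Nanog libraries, 9.26, 10.7 and 8.54 CPM in NanogKO:Esrrb libraries and 9.49, 9.39 and 10.6 CPM in NanogKO libraries.

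The Esrrb member with the internal start printed above (chr12:86421350-86422863) differed least, with 21.1, 22.5 and 21.3 CPM in NanogKO:Esrrb:Nanog libraries, 18.8, 16.7 and 19.6 CPM in NanogKO:Esrrb libraries and 18.2, 19.1 and 17.3 CPM in NanogKO libraries. Its NanogKO:Esrrb:Nanog libraries lay above the others, and NanogKO:Esrrb and NanogKO libraries overlapped. Against NanogKO, NanogKO:Esrrb:Nanog differed there by 0.25 ± 0.11 on the log2 scale, which missed the threshold (adjusted p = 0.066) but passed it with DESeq2 (0.046) and with a replicate block (0.042). The weakest member (chr12:86365347-86366074) had 5.41, 4.61 and 4.81 CPM in NanogKO:Esrrb:Nanog libraries, 4.23, 4.72 and 3.38 CPM in NanogKO:Esrrb libraries and 1.78, 3.18 and 3.57 CPM in NanogKO libraries. In NanogKO:Esrrb against NanogKO it differed by 0.52 ± 0.2 (adjusted p = 0.043), a call that was lost in 5 of 15 alternative fits, with adjusted p from 0.051 to 0.28 in those. Reads of added Esrrb sequence, if any, would be counted in the gene's exons together with its own, and exons are not marked in the annotation used.

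Members with an internal start were stronger and wider than other members, with medians of 18.1 CPM and 870.5 bp against 4.98 CPM and 465 bp. In NanogKO:Esrrb against NanogKO, 83 of the 1408 were higher and 227 lower (median -0.10), in NanogKO:Esrrb:Nanog against NanogKO 307 higher and 164 lower (0.08), and in NanogKO:Esrrb:Nanog against NanogKO:Esrrb 308 higher and 30 lower (0.17). As shares these are 5.89% and 16.1%, 21.8% and 11.6%, and 21.9% and 2.13%. Among other members they were 17.9% and 15.9%, 26.0% and 20.5%, and 15.5% and 8.48%, and among all regions 20% and 17%, 24.9% and 24.4%, and 12.6% and 12%. Among the sequences printed above, the Tbc1d24 member had 24.8, 25.7 and 19.5 CPM in NanogKO:Esrrb:Nanog libraries, 14.9, 18 and 12.1 CPM in NanogKO:Esrrb libraries and 4.39, 3.91 and 4.66 CPM in NanogKO libraries. The Gramd2 member had 25.1, 23.6 and 23.7 CPM in NanogKO:Esrrb:Nanog libraries, 11.4, 15.3 and 11.8 CPM in NanogKO:Esrrb libraries and 4.93, 5.71 and 5.05 CPM in NanogKO libraries. Both were separate in all 3 groups and highest with both factors (2.43 ± 0.15 and 2.2 ± 0.13 against NanogKO). The member at the start of Map4, a microtubule-associated protein, had 12.5, 13.3 and 12.9 CPM in NanogKO:Esrrb:Nanog libraries, 9.5, 11.9 and 8.37 CPM in NanogKO:Esrrb libraries and 2.19, 2.55 and 2.45 CPM in NanogKO libraries (2.42 ± 0.15 against NanogKO). Its difference between NanogKO:Esrrb:Nanog and NanogKO:Esrrb, 0.38 ± 0.14 (adjusted p = 0.046), passed the threshold here and missed it in 9 of 15 alternative fits, with adjusted p from 0.052 to 0.23 in those.

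Downward, the Fam178b member had 2.55, 2.44 and 2.8 CPM in NanogKO:Esrrb:Nanog libraries, 3.46, 2.85 and 3.9 CPM in NanogKO:Esrrb libraries and 15.4, 16.1 and 16.1 CPM in NanogKO libraries (-2.61 ± 0.15 in NanogKO:Esrrb:Nanog against NanogKO). The Zfand4 member had 2.99, 2.14 and 3.22 CPM in NanogKO:Esrrb:Nanog libraries, 6.3, 4.79 and 5.83 CPM in NanogKO:Esrrb libraries and 12.8, 13.3 and 11.9 CPM in NanogKO libraries (-2.17 ± 0.16). These and the Foxp1 member were lowest in NanogKO:Esrrb:Nanog, without overlap between groups. In Fam178b the difference between NanogKO:Esrrb:Nanog and NanogKO:Esrrb, -0.38 ± 0.15, missed the threshold (adjusted p = 0.071), and passed it in 2 of 15 alternative fits. The GC content of the start windows differed in its order between comparisons. In NanogKO:Esrrb against NanogKO, windows in higher members had a median GC content of 54.7% and 7 CpG (91 windows), and those in lower members 57.7% and 11 CpG (241 windows). The 1253 windows in members not called had more of both, 60.7% and 19 CpG. In NanogKO:Esrrb:Nanog against NanogKO higher members had 59.3% and 15 CpG (346 windows), and lower ones 55.7% and 7 CpG (172 windows). There the 1067 windows in members not called had 61% and 19 CpG. By direction in NanogKO:Esrrb:Nanog against NanogKO:Esrrb, the windows of the 347 starts in higher members had a median GC content of 61.7% and 15 CpG, and those of the 31 starts in lower members 50.7% and 6 CpG. The remaining 1207 starts had medians of 59.7% and 17 CpG. Of the 48 members with a microRNA hairpin, at a median level of 8.62 CPM, 4 were higher and 9 lower in NanogKO:Esrrb against NanogKO (8.33% and 18.8%, where 20% and 17% of all regions were), 11 and 7 in NanogKO:Esrrb:Nanog against NanogKO (22.9% and 14.6%, where 24.9% and 24.4% were), and 12 and 2 in NanogKO:Esrrb:Nanog against NanogKO:Esrrb (25% and 4.17%, where 12.6% and 12% were).

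**Figure D5:**
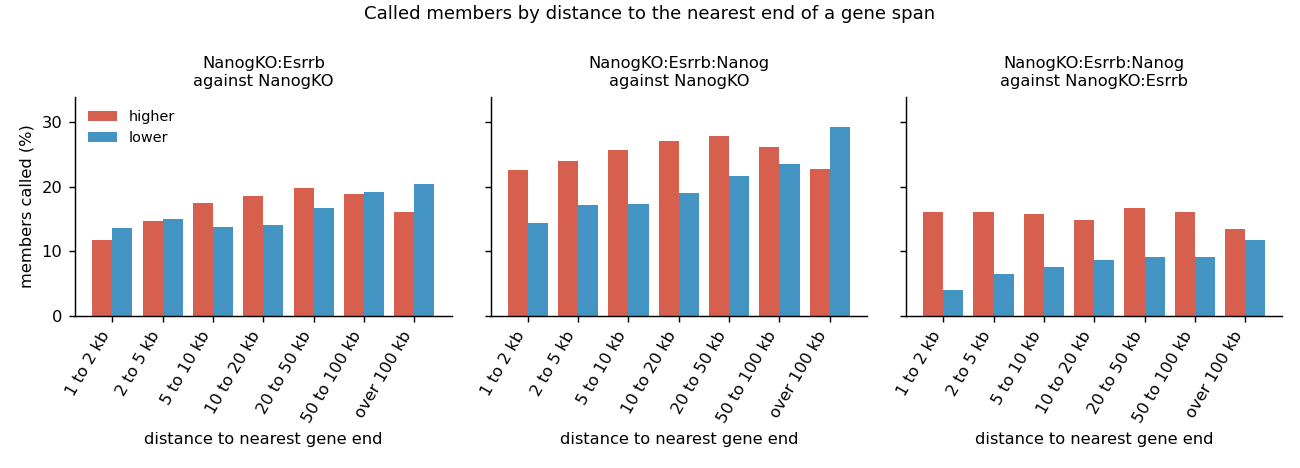
Share of members called higher (left bars) and lower (right bars) in percent (y axis, from 0) by distance to the nearest end of a gene's span (x axis), in the 3 comparisons. Lower calls between NanogKO:Esrrb:Nanog and NanogKO:Esrrb run from 3.99% at 1 to 2 kb to 11.7% beyond 100 kb.

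Distance to the nearest gene end went with the calls, as the plot by distance shows. For NanogKO:Esrrb against NanogKO, 11.8% of the 2705 members at 1 to 2 kb were higher and 13.6% lower, against 19.7% and 16.8% of the 7944 at 20 to 50 kb and 16.0% and 20.4% of the 3106 beyond 100 kb. With both factors, against NanogKO, 22.6% were higher and 14.3% lower at 1 to 2 kb, 27.9% and 21.6% at 20 to 50 kb, and 22.8% and 29.3% beyond 100 kb. Between NanogKO:Esrrb:Nanog and NanogKO:Esrrb, 16.2% were higher and 3.99% lower at 1 to 2 kb, 16.7% and 9.11% at 20 to 50 kb, and 13.5% and 11.7% beyond 100 kb. Levels fell along with distance, with a median of 7.65 CPM at 1 to 2 kb and 3.96 CPM beyond 100 kb, and their part in these shares was not tested. On either side of the rule's limit, of the 817 members 1001 to 1250 bp from an end, 14.2% were higher and 2.2% lower in NanogKO:Esrrb:Nanog against NanogKO:Esrrb, as were 17.8% and 3.25% of the 1014 excluded regions 751 to 1000 bp from one.

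The level of a member went with its direction in the comparisons of NanogKO:Esrrb:Nanog. Among the 8816 members of lowest level (median 2.32 CPM), 14.2% were higher and 22.5% lower in NanogKO:Esrrb:Nanog against NanogKO, and among the 8816 of highest level (14.6 CPM) 34.9% and 13.1%. Between NanogKO:Esrrb:Nanog and NanogKO:Esrrb these shares were 6.59% and 9.04% at the lowest levels and 24.5% and 4.25% at the highest. For NanogKO:Esrrb against NanogKO they were 10.2% and 12.8%, and 20.6% and 15.4%. Calls need less of a difference at higher counts, so the sum of both shares is no measure of effect. The median log2 fold change is less bound to counts, and it ran from -0.11 at the lowest levels to 0.13 at the highest in NanogKO:Esrrb:Nanog against NanogKO, from -0.08 to 0.16 in NanogKO:Esrrb:Nanog against NanogKO:Esrrb, and only from -0.04 to -0.03 in NanogKO:Esrrb against NanogKO. The TMM factors were 0.919, 0.959 and 0.988 in NanogKO:Esrrb:Nanog libraries, 1.01, 1.03 and 1.04 in NanogKO:Esrrb libraries and 0.992, 1.03 and 1.04 in NanogKO libraries, so those of NanogKO:Esrrb:Nanog were the lowest 3, and their part in the pattern by level was not tested.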

How the data were processed

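ATAC-seq was measured in 9 libraries. The authors deposited a table of raw read counts, whole numbers without normalization, per region and library, and 3 peak lists with a score per interval, which the deposited files carry from peak calling, and of which only the intervals were used. In the list named for the NanogKO:Esrrb:Nanog libraries, all peak names are those of NanogKO:Esrrb replicate 3. Coordinates are mm10, per the submitters' processing notes, which list, without settings, MACS2 2.2.0, Bowtie2, bedtools 2.26.0, cutadapt, deepTools 4.4.0, bcl2fastq 2.19.1 and SAMtools 1.4.1. The tool that counted reads, shifting of reads for the transposase, removal of duplicates and mapping filters are not given in the sources used here.

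All 9 libraries entered 1 fit of group means (edgeR 4.0.16, TMM factors, filterByExpr, quasi-likelihood F test, R 4.3.3) over 157439 regions, with 6 residual degrees of freedom and p-values adjusted by Benjamini-Hochberg over all of them. All members were tested. Fold changes are log2 (prior count 2 for log2 CPM), and adjusted p-values come from this fit unless an alternative is named. The standard errors were derived from the test, as the absolute log2 fold change over the square root of its F statistic. Alternatives were DESeq2 1.42.0, RLE factors, library totals, no filter, a threshold of 0.01, members by coverage, distance, abundance or without chromosome X, ends of non-coding genes (chosen after seeing the data), each library left out, fits of only the groups compared, and the replicate block. The members were chosen on the deposited peak lists, so counts over them are descriptions. An exact permutation test of 3 libraries against 3 cannot go below p = 0.1 and was not used.

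Members, lists and rules were chosen with earlier results of these data known. The 19 gene lists held 558 entries and 521 genes, all matched to the annotation, with 37 genes in more than 1 list. A member belongs to the genes whose span it overlaps. Named for each comparison were the 5 members with the largest rise and the 5 with the largest fall, out of called members at or above the median level whose libraries do not overlap (at most 1 per gene), the called member of smallest p in each list, and the 3 genes of 10 or more members with the highest median, with the lowest, and with the most members on the rarer side, higher or lower. Also named were the members of highest level and of smallest range, the genes with most members, and all members of Esrrb. Regions were not read as sequence, since no genome was used.

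Whether replicate numbers pair libraries was checked by the correlation of deviations from group means. For equal numbers it was 0.117 to 0.152 between NanogKO:Esrrb and NanogKO, 0.105 to 0.146 between NanogKO:Esrrb:Nanog and NanogKO:Esrrb, and 0.002 to 0.136 between NanogKO:Esrrb:Nanog and NanogKO. For unequal numbers it was -0.095 to -0.048, -0.098 to -0.032 and -0.091 to 0.045 in the same order. Equal and unequal numbers overlapped only between NanogKO:Esrrb:Nanog and NanogKO. The reported fit does not pair libraries, and the fit with the replicate number as a block is an alternative. No shared culture or day is labelled. Within groups log2 CPM correlated at 0.964 to 0.983 across regions. Chi-square per region between replicates was 3.55 to 9.49, so no library was a copy of another. The fits were tested on simulated counts.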

Additional observations from a re-analysis of the deposited data

How the results depend on the processing

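Of 179 results on named regions, 12 changed their call under at least 1 of 15 alternative fits. All 84 of the largest changes and list leaders kept theirs, but these were chosen for large differences or small p. Over these 179 results and 15 fits, 2639 values kept the call, 38 lost it and 8 gained it. The sign turned in 28 values of 16 results, none called in either fit. The median over members turned negative with library totals alone, to -0.072 in NanogKO:Esrrb:Nanog against NanogKO and -0.044 in NanogKO:Esrrb:Nanog against NanogKO:Esrrb, where the share of higher calls turned too. It was 0.035 and 0.074 with DESeq2 and with RLE factors, and 0.091 and 0.13 over members at or above the median abundance. Over the 19752 members covered to 50% or more by each list, a choice made on peaks of the same reads, it was 0.14 and 0.17. More than 5 kb from gene ends it was 0.045 in NanogKO:Esrrb:Nanog against NanogKO:Esrrb. In NanogKO:Esrrb against NanogKO it was -0.028 with 50% coverage and -0.029 beyond 5 kb. Without 1 library it ran from -0.046 to -0.026 in NanogKO:Esrrb against NanogKO, the higher value without NanogKO replicate 1, from 0.017 to 0.034 in NanogKO:Esrrb:Nanog against NanogKO and from 0.051 to 0.070 in NanogKO:Esrrb:Nanog against NanogKO:Esrrb.

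Counts fell with fewer members or a stricter threshold, and the balance shifted to higher calls with coverage. Coverage was taken from peaks called on the same reads, so this choice of members is not independent of the calls. Its part in the shift was not tested. With 50% coverage, 3590 were higher and 2818 lower in NanogKO:Esrrb against NanogKO, 6490 and 2421 in NanogKO:Esrrb:Nanog against NanogKO, and 4523 and 669 in NanogKO:Esrrb:Nanog against NanogKO:Esrrb. Above the median abundance there were 3661 higher and 2979 lower, 5730 higher and 3009 lower, and 1146 lower in these comparisons. At an adjusted p under 0.01, 3374 were lower in NanogKO:Esrrb against NanogKO, and 2961 higher and 1262 lower in NanogKO:Esrrb:Nanog against NanogKO:Esrrb. Library totals gave 3521 higher and 4366 lower in NanogKO:Esrrb:Nanog against NanogKO:Esrrb. Without 1 library, higher and lower calls ran from 4828 to 6596 and from 4027 to 6435 in NanogKO:Esrrb against NanogKO, from 7880 to 9311 and from 5920 to 7382 in NanogKO:Esrrb:Nanog against NanogKO, and from 3527 to 6718 and from 1830 to 3774 in NanogKO:Esrrb:Nanog against NanogKO:Esrrb.

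Members took 27.8%, 27.4% and 27.3% of reads in NanogKO:Esrrb:Nanog, NanogKO:Esrrb and NanogKO, and 20.2%, 19.1% and 18.8% with 50% coverage, 19.8%, 19.5% and 19.3% beyond 5 kb, and, in an alternative chosen after seeing the data that also leaves out ends of non-coding genes (33396 members), 25.8%, 25.4% and 25.3%. Without chromosome X the share in NanogKO was 26.9%. Leaving out 1 library gave 27.6% to 27.9%, 27.1% to 27.6% and 27.2% to 27.3%.

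With the replicate number as a block, 6681 members were higher and 6377 lower in NanogKO:Esrrb against NanogKO, 9715 and 7745 in NanogKO:Esrrb:Nanog against NanogKO, and 6564 and 3539 in NanogKO:Esrrb:Nanog against NanogKO:Esrrb, with medians of -0.041, 0.021 and 0.057. The block changed the call of 3 named regions: the Esrrb member at its internal start in NanogKO:Esrrb:Nanog against NanogKO, and, in NanogKO:Esrrb:Nanog against NanogKO:Esrrb, those in Tpm3 (adjusted p = 0.0087) and in Schip1 and Iqschfp (0.022), which also passed without NanogKO:Esrrb:Nanog replicate 3 (0.014 and 0.037). The weaker Sfi1 member missed the threshold there without NanogKO:Esrrb:Nanog replicate 2 (0.052). Without 1 library the list medians turned sign for trophoblast, mesendoderm, neural genes (0.009 without NanogKO replicate 2) and endothelium and blood (-0.014 without NanogKO:Esrrb:Nanog replicate 2) in NanogKO:Esrrb:Nanog against NanogKO, for mesendoderm (-0.038 without NanogKO:Esrrb replicate 2) in NanogKO:Esrrb:Nanog against NanogKO:Esrrb, and, in NanogKO:Esrrb against NanogKO, for adhesion and matrix (-0.011 without NanogKO:Esrrb replicate 2), TGF-beta, Nodal and BMP signalling (0.008 without NanogKO:Esrrb replicate 1) and housekeeping genes. Lower neural calls in NanogKO:Esrrb against NanogKO numbered 19 without NanogKO:Esrrb replicate 2 or without NanogKO replicate 2. Depth limits small differences at members of low level most. The scaling cannot tell a change over all regions from one of composition.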
